A study of Mus musculus with 185 samples.

Results

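The genes described here encode 7 secreted peptides of the hypothalamus: the releasing hormones Crh, Trh, Ghrh and Gnrh1, the inhibiting hormone Sst, and the neurohypophyseal hormones Avp and Oxt. They were taken by name from the count matrix, and all 7 were found among its 57010 genes. The data are bulk RNA-seq of 5 brain regions from each of 37 male C57BL/6J mice obtained at 8 weeks of age. In the 16 h study, mice were housed 2 to a cage and were kept on chow (6 mice), switched to a high-fat diet (HFD, D12331, 6 mice) or fasted (6 mice). In the 24 h study, mice were housed singly and either stayed on chow (9 mice) or were fasted (10 mice). The hypothalamus was collected whole in both studies, together with the hippocampus and both colliculi, and the last region was prefrontal cortex at 16 h and zona incerta at 24 h.

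Hypothalamic releasing hormones travel through the portal vessels of the pituitary stalk to the anterior pituitary, where each one raises or lowers the release of particular pituitary hormones. Crh drives corticotropin, and through it the adrenal glucocorticoids, Trh drives thyrotropin, Ghrh drives growth hormone, Sst restrains growth hormone and Gnrh1 drives the gonadotropins. Avp and Oxt are made by large neurons of the paraventricular and supraoptic nuclei whose axons end in the posterior pituitary, and they act on water balance and on birth, milk ejection and social behaviour. Fasting is known to raise glucocorticoids and to lower the thyroid, growth and reproductive axes in rodents.

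Each count column is 1 library, and its heading names the mouse but not the region, so a gene is given here in 2 ways. The first is its CPM (counts scaled to a total of 1000000) in the sum of the 5 columns of a mouse. The second is the CPM of whichever of the mouse's columns held most of that gene, among columns with at least 1000000 counts. Column totals had a median of 17626610 counts, and the sum per mouse ranged from 57962237 to 161577364 counts. In bulk tissue, fewer cells that make a hormone and less RNA in each such cell cannot be told apart.

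The sequences of Avp and Oxt are shown first because the transcripts of these neighbours share an identical stretch. Oxt lies at chr2:130418091-130418974 on the plus strand and Avp at chr2:130422540-130424640 on the minus strand (GRCm39, GENCODE vM39), with 3565 bases between them. In each gene the hormone's 9 codons lie in exon 1 of 3. The lines below give them 5′ to 3′ on the coding strand, with the bases that differ between the genes in capitals.
Avp: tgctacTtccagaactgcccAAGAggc
Oxt: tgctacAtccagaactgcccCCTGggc
Counted from the first base of the first codon, the 5 differences from Avp to Oxt are T7A in codon 3, A21C in codon 7, and A22C, G23T and A24G in codon 8. Downstream, in the part that encodes the carrier protein neurophysin, the transcripts share an identical run of 127 bases that joins exon 1 to exon 2 in both genes.
Shared run: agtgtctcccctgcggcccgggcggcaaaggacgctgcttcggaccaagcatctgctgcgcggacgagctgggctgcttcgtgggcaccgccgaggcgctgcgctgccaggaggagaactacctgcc
A read pair that falls wholly inside this run fits both genes, so the split of reads between Avp and Oxt rests on the rest of the transcripts. No other pair of the 7 transcripts shared more than 13 bases in a row.

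Crh lies on the minus strand at chr3:19747565-19749655 and encodes its 41-residue hormone in exon 2 of 2. The stretch is shown because Crh gave the lowest p among these genes, and its capitals mark the 2 codons after the hormone, which provide the glycine for the amide at its end and the first basic residue.
Crh: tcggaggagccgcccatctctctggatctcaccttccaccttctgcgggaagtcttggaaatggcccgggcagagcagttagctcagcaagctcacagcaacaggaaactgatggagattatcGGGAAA
Trh, at chr6:92219021-92221631 on the minus strand, differs in plan: its exon 3 holds 5 copies of a 3-codon hormone between pairs of basic codons. The first and last copies are given with the hormone codons in capitals.
Trh copy 1: aaacgcCAGCATCCGggcaaaagg
Trh copy 5: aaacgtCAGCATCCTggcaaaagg
Sst (chr16:23707321-23711733, minus strand), Ghrh (chr2:157171414-157191485, minus strand) and Gnrh1 (chr14:67982630-67986888, plus strand) complete the set. The annotation places a long non-coding RNA on the opposite strand over Trh (Gm67229) and over Gnrh1 (Gm62608). Which strand the authors counted is not given in the sources used here, so reads of those pairs may not be separate.

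Among columns past that limit, Avp, Oxt, Trh and Ghrh were concentrated in 1 column of a mouse, whereas Sst, Crh and Gnrh1 were spread over several. The highest column held a median of 97.0% of a mouse's Avp, added over its columns as CPM, and 97.8% of its Oxt, 89.4% of its Trh and 80.9% of its Ghrh (37 mice). The same median was 46.3% for Crh, 38.5% for Gnrh1 and 32.1% for Sst. The column with most Avp was also the one with most Oxt in 35 of 37 mice, with most Trh in 36 and with most Ghrh in 36, but with most Gnrh1 in 24, with most Crh in 10 and with most Sst in 5. The summed hypothalamus markers were highest in the column with most Avp in 36 of 37 mice. No column was named as a region on these grounds.

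**Figure D1:**
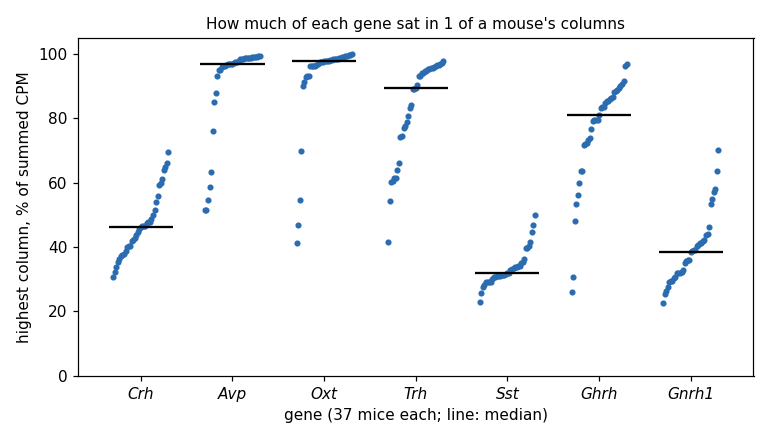
Share of each gene's CPM, added over a mouse's columns, that its highest column held, in percent (y axis), for 7 genes (x axis); each point is 1 of 37 mice and the line is the median. Avp and Oxt lie mostly above 90%, while the medians of Crh (46.3%), Gnrh1 (38.5%) and Sst (32.1%) are below 50%.

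Across the 177 columns with at least 1000000 counts, Pearson's r of log2(CPM + 0.5) was 0.98 between Avp and Oxt, 0.92 between Avp and Trh and 0.91 between Avp and Ghrh. It was 0.25 between Avp and Crh and 0.033 between Avp and Sst. These columns share mice and regions, so the coefficients describe where genes were read and carry no p. Among 16122 genes compared, those most like Trh were Sim1 (r = 0.94), a transcription factor needed for paraventricular neurons, and Isl1 (0.93), and those most like Ghrh were Fezf1 (0.95), Nkx2-4 (0.94) and Hmx3 (0.94), all developmental transcription factors. Fezf1 (0.97) and C130093G08Rik (0.97) followed Avp for Oxt, and Sfta3 (0.96) and C130093G08Rik (0.96) followed Oxt for Avp. For Sst they were Npy (0.78), a peptide that some cortical Sst interneurons also make, Crhbp (0.64) and Ankrd63 (0.64). Crh had no close match, with Rab3b (0.61), Rprm (0.61) and Crip2 (0.58), and for Gnrh1 they were Agrp (0.72), Zfp783 (0.69) and Fndc9 (0.69).

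Some mice had little of the hypothalamic genes in any column of at least 1000000 counts. The labels mark the hypothalamus library as failing the alignment step in 1 fasted mouse at 16 h, 3 chow mice and 3 fasted mice at 24 h, and as an outlier of the principal component analysis in 1 HFD mouse. In that HFD mouse, mouse 13, no column exceeded 2.81 CPM of Avp or 0.774 CPM of Oxt, and the hypothalamus markers reached 7.03 CPM against 182 to 202 CPM in the other HFD mice. Of the 7 mice with a failed alignment, chow mice 1441 and 1451 had at most 1.81 and 0.769 CPM of Avp in such a column, and the others had between 46.9 and 173. Mouse 1451 had a further column of 964813 counts, just under the limit, with 239 of its 274 Avp counts (248 CPM) and 141 of its 155 Oxt counts (146 CPM). Its highest column therefore leaves out the one where these genes were read, while its sum includes it. In the other 7 columns under the limit, Avp was no higher than in the deeper columns of the same mouse. In chow mouse 5 and HFD mouse 16, a second column held much Avp (176 beside 188 CPM, and 161 beside 281 CPM). Among columns past the limit, the one with most Avp took between 5.33% and 52.4% of a mouse's counts, and a sum is weighted by that share.

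Per kilobase of the canonical transcript and in the highest column, the 7 genes spanned more than 2 orders of magnitude in chow mice. In 16 h chow mice the mean CPM per kilobase was 236 ± 70.4 for Avp, 86.0 ± 39.4 for Oxt, 45.4 ± 6.66 for Sst, 31.6 ± 8.24 for Trh, 4.17 ± 0.66 for Ghrh, 2.23 ± 0.48 for Crh and 0.87 ± 0.18 for Gnrh1 (SD, n = 6). The ranges of Oxt and Sst overlapped, as did those of Sst and Trh, while the other neighbours in this order did not overlap. In the 6 chow mice at 24 h whose hypothalamus library had not failed, the order was the same, with 252 ± 50.6 for Avp and 123 ± 21.3 for Oxt. There the neighbours that overlapped were Sst with Trh and Crh with Gnrh1. Since the highest column was taken for each gene apart, these levels need not come from 1 region.

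**Figure D2:**
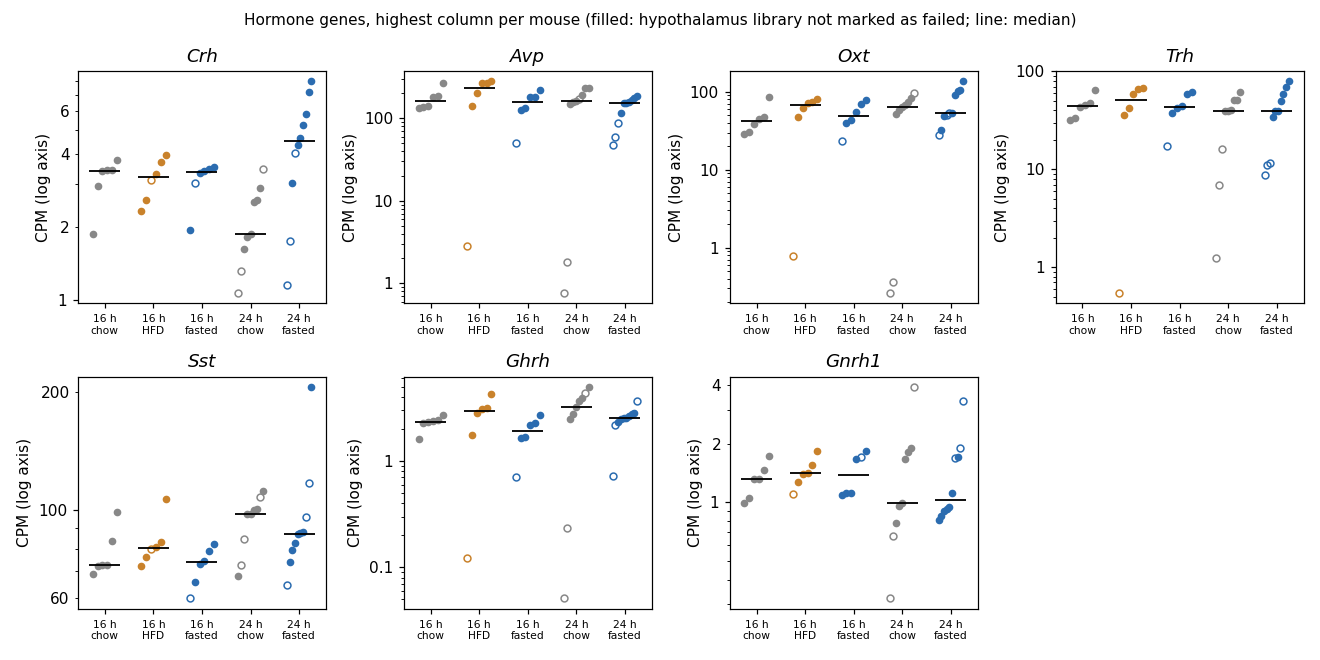
Highest column per mouse for the 7 genes, in CPM on a log axis, by study and diet; each point is 1 mouse, open points are mice whose hypothalamus library is marked as failed, and the line is the median. The low open points in Avp, Oxt, Trh and Ghrh are mice with no column of at least 1000000 counts that was high in these genes, and Crh at 24 h is the gene whose filled points do not overlap between chow and fasted.

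Diet was compared within each study by edgeR's quasi-likelihood test on the sums and by limma on the highest columns, with p-values adjusted by Benjamini-Hochberg over all genes tested. No hormone gene passed an adjusted p of 0.05 in any comparison of diets. At 16 h, none of the 7 had an unadjusted p under 0.05 in any of the 3 comparisons, by either measure, and DESeq2 on the sums also called none. Over all genes, the share called by edgeR at 16 h was 0% for fasted against chow (2267 of 29746 genes at an unadjusted p under 0.05), 0% for HFD against chow (2914 genes unadjusted) and 0.219% for fasted against HFD. DESeq2 called 0.0472%, 0.0124% and 0.879%. By limma the shares were 0%, 0% and 0.00886%. At 24 h the share called was 11.4% for the sums and 6.13% for the highest column. Of the 7 genes 1, Crh, had an unadjusted p under 0.05 by each measure. Over all genes, 7033 of 29011 had such a p in the sums (edgeR) and 4268 of 21679 in the highest column (limma).

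**Figure D3:**
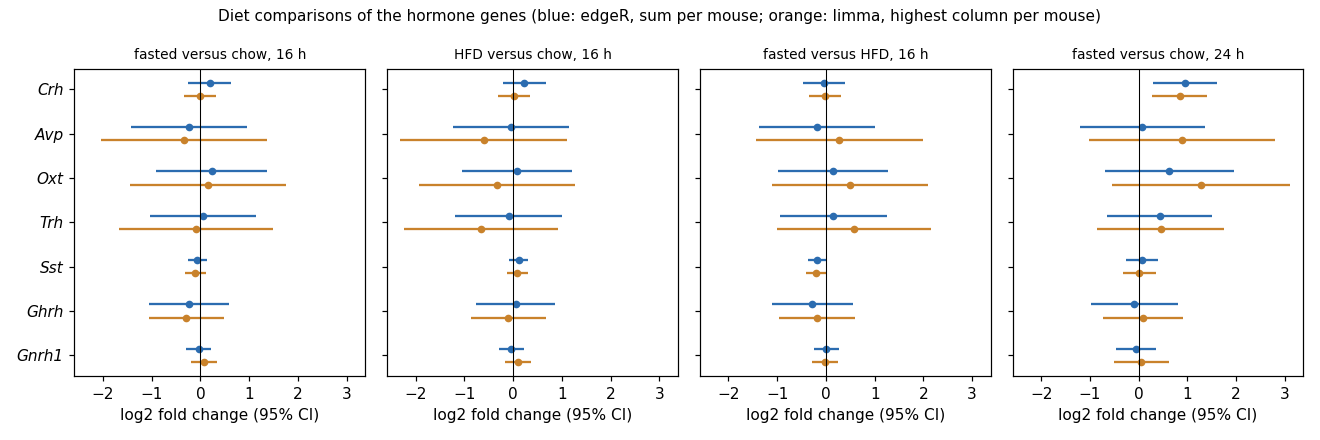
Log2 fold change of the 7 genes (points) with the 95% confidence interval (lines) in 4 comparisons of diets, from edgeR on the sums (blue) and limma on the highest column (orange). Every interval at 16 h includes 0, and at 24 h the intervals of Crh alone do not.

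Over all mice of the 24 h study, Crh averaged about 2-fold more in fasted than in chow mice, at an adjusted p just above the threshold by both measures. Summed Crh ranged from 0.307 to 1.80 CPM with a median of 0.996 in the 9 chow mice, and from 0.579 to 2.98 CPM with a median of 1.94 in the 10 fasted mice. The groups overlapped, and the lowest values in both came from mice with a failed hypothalamus library. The fold change of the sums was 1.93 with a 95% confidence interval from 1.23 to 3.04 (log2 0.95, SE 0.31, edgeR adjusted p = 0.0559). In the highest column, Crh ranged from 1.08 to 3.48 CPM (median 1.88) in chow mice and from 1.16 to 7.96 CPM (median 4.50) in fasted mice, with a fold change of 1.79 on the log2(CPM + 0.5) scale (95% interval 1.20 to 2.65, limma adjusted p = 0.0769). These levels rest on few reads, between 23 and 397 Crh counts per mouse in the sums and between 2 and 334 in the highest column at 24 h.

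Restricting the highest column to mice whose hypothalamus library had not failed separated the diets for Crh. The 6 chow mice then ranged from 1.63 to 2.90 CPM (mean 2.23 ± 0.51, SD) and the 7 fasted mice from 3.04 to 7.96 CPM (mean 5.48 ± 1.70), without overlap. This filter covered the hypothalamus library only. Most of these mice kept columns of other regions whose libraries are marked as failing the alignment step. The authors discarded a block of 24 h libraries in which no RNA was detected, but its columns are in the matrix. The part of these libraries in the separation was not tested. The value of chow mouse 1431 (1.83 CPM) came from 2 counts in a column of 1094563, and its next column had 1.24 CPM, while the other 5 chow mice had 34 to 64 counts and the fasted mice 43 to 334. In that restricted fit the log2 fold change was 1.10 with an SE of 0.19 (limma adjusted p = 0.00716), in a background of 5.86% of 20960 genes called, 1.81% of them as higher. Of all genes, 1.01% lay higher in every one of these fasted mice than in every chow mouse. The sums were less separated in the same mice (log2 0.83, SE 0.26, edgeR adjusted p = 0.0585). Crh also passed the threshold for the sums with DESeq2 (adjusted p = 0.0197, background 10.4% of 40388 genes, counted as for 16 h). So it did with only the columns past both depth limits (0.0420, background 12.4%) and with the level of the hypothalamus markers as a covariate (0.00521, background 12.7%). With only columns past both depth limits, the highest column missed it (log2 0.93, SE 0.34, limma adjusted p = 0.109). The sums missed the threshold with RLE size factors (edgeR adjusted p = 0.0525) and with only a count sum over 10 as filter (0.0629). So they did with the clock time of euthanasia as covariate (0.0651) and without mice 1423 and 1454 (log2 0.90, adjusted p = 0.113). The labels record the superior colliculus tubes of these mice as exchanged, and the authors corrected their sample records for it. Without restriction on the hypothalamus library, the highest column missed the threshold with a pseudocount of 2 (limma adjusted p = 0.0653). It also did without a low-value filter (0.131), with columns of any depth (0.105) and without mice 1423 and 1454 (0.151).

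**Figure D4:**
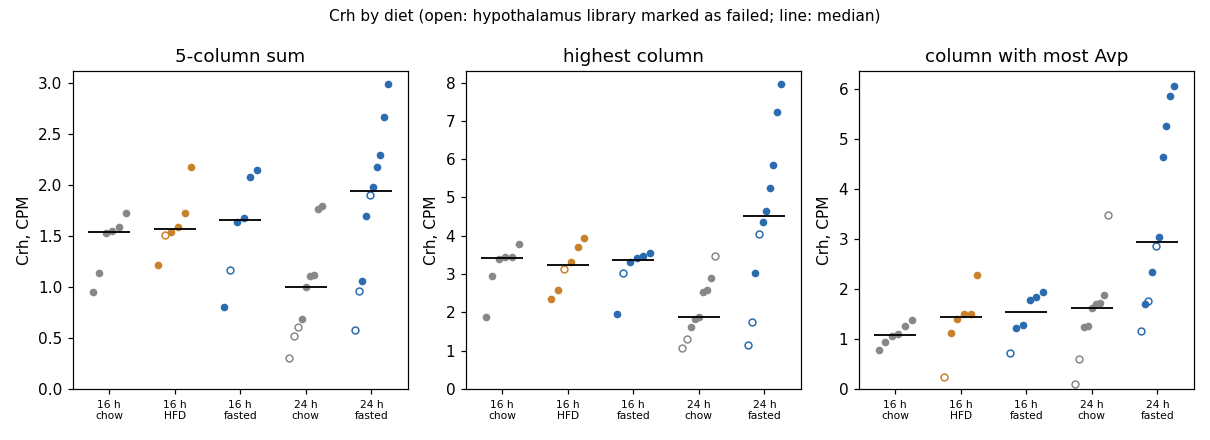
Crh in CPM per mouse by study and diet, as the 5-column sum (left), in the highest column (middle) and in the column with most Avp (right); each point is 1 mouse, open points are mice whose hypothalamus library is marked as failed, and the line is the median. In the middle panel the 7 filled points of mice fasted for 24 h lie between 3.04 and 7.96 CPM and the 6 filled points of chow mice between 1.63 and 2.90.

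The column in which Crh was highest differed between mice, and was the column with most Avp in 10 of 37. No column was assigned to a region, so the Crh values need not be those of the hypothalamus. In the column with most Avp, Crh lay between 1.24 and 1.88 CPM in the 6 chow mice with no failed hypothalamus library at 24 h and between 1.71 and 6.07 CPM in the 7 fasted ones. Fasted mice 1425, 1433 and 1444 had their most Crh in another column (4.37, 7.96 and 7.23 CPM, against 1.71, 2.35 and 6.07 CPM in the column with most Avp). So did chow mice 1431, 1432, 1443 and 1452 (1.83, 2.58, 2.90 and 2.54 CPM, against 1.24, 1.69, 1.72 and 1.26 CPM). Crh in the column with most Avp was added as a measure after the values had been seen and was not tested.

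After 16 h, Crh was not called between diets. Summed Crh ranged from 0.950 to 1.73 CPM in chow mice (median 1.54), from 1.22 to 2.17 CPM in HFD mice (median 1.56) and from 0.804 to 2.15 CPM in fasted mice (median 1.66), so that all 3 groups overlapped. The fold change of fasted against chow was 1.14 with a 95% interval from 0.842 to 1.54, and that of HFD against chow was 1.17 with an interval from 0.866 to 1.59 (edgeR adjusted p = 0.859 and 0.724). These comparisons share the chow mice. Whether fasting acted differently on Crh in the studies was tested as an interaction over 31 mice, in which the fold at 24 h was 1.68 times that at 16 h, with an interval from 0.898 to 3.15 (edgeR adjusted p = 0.654, with 1.23% of 30664 genes called). The studies also differed in housing, in the length and clock time of the fast, in the last region among the 5 and in their sequencing, which had no run in common, and these cannot be told apart here.

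Avp was the hormone gene with the highest level per length, and it was not called between diets. Its sums ranged from 22.4 to 56.4 CPM in 16 h chow mice (median 48.7), from 0.727 to 83.1 CPM in HFD mice (median 39.9) and from 8.98 to 66.3 CPM in fasted mice (median 40.1). At 24 h they ranged from 1.15 to 75.2 CPM in chow mice (median 37.9) and from 5.19 to 80.7 CPM in fasted mice (median 31.0). All groups overlapped, and the lowest value of every group with a failed hypothalamus library came from such a mouse. The fold of the sums was 0.855 for fasted against chow at 16 h (95% interval 0.375 to 1.95) and 1.05 at 24 h (0.432 to 2.57), of which the second also holds changes of 2-fold either way (edgeR adjusted p = 0.940 and 0.965). The fold at 24 h in the highest column was 1.85 over all mice (0.493 to 6.93, limma adjusted p = 0.657), with chow mice 1441 and 1451 among them, and its log2 value of 0.89 became 0.041 with columns of any depth and -0.23 without mice with a failed hypothalamus library. Within mice whose hypothalamus library had not failed, the highest column averaged 187 ± 37.6 CPM in chow (n = 6) and 159 ± 22.2 CPM in fasted mice (n = 7) at 24 h.

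For HFD against chow at 16 h, the direction for Avp, Oxt and Trh rested on HFD mouse 13. With it, the log2 fold change in the highest column was -0.61 for Avp, -0.34 for Oxt and -0.66 for Trh (limma adjusted p between 0.838 and 0.925). Without the mice marked as failed in any way it was 0.41, 0.61 and 0.28, again short of the threshold (limma adjusted p between 0.714 and 0.741).

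Oxt was not called at 24 h by either measure, and its intervals were wide. Summed Oxt ranged from 0.187 to 24.9 CPM in chow mice (median 15.3) and from 2.77 to 46.7 CPM in fasted mice (median 11.8), and the groups overlapped. The fold of the sums was 1.54 (95% interval 0.617 to 3.86, edgeR adjusted p = 0.613) although the fasted median was the lower one, and in the highest column it was 2.42 (0.680 to 8.63, limma adjusted p = 0.460). That highest-column value rested on chow mice 1441 and 1451: its log2 fold change of 1.28 became 0.66 without the first, 0.64 without the second, 0.43 when columns of any depth were used and 0.17 without all mice with a failed hypothalamus library (limma adjusted p between 0.702 and 0.837). Fasted mice 1424 and 1454 held the most, with 46.7 and 44.1 CPM. At 16 h, Oxt ranged from 5.10 to 17.6 CPM in chow, from 0.273 to 21.8 CPM in HFD and from 4.10 to 21.4 CPM in fasted mice, and the fold of fasted against chow was 1.17 (0.535 to 2.57).

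The total depth of a mouse cancels in the ratio of its Oxt to Avp counts, but the ratio rests on few counts where both genes were low. Chow mouse 1441 had 14 Oxt and 86 Avp counts. At 24 h the lowest and highest ratios, 0.163 in chow mouse 1441 and 0.932 in fasted mouse 1445, came from mice with a failed hypothalamus library. At 16 h the ratio was 0.256 ± 0.036 in chow, 0.315 ± 0.11 in HFD and 0.366 ± 0.087 in fasted mice (SD, n = 6 each). The fasted ratio was 1.40 times the chow ratio (two-sided exact permutation test on the log2 ratio, p = 0.0303, and 0.121 adjusted over the 4 comparisons of diets). The test took mice as units, although mice of the 16 h study shared cages. At 24 h the ratio was 0.372 ± 0.11 in 9 chow mice and 0.535 ± 0.21 in 10 fasted mice, 1.39 times as high (exact permutation p = 0.0902, adjusted 0.180). In mice whose hypothalamus library was not marked as failed, the fasted ratio was 1.33 times the chow ratio at 16 h and 1.25 times at 24 h (exact permutation p = 0.0606 and 0.272). The ratio was chosen after the values of both genes had been seen, and no comparison of it passed the adjustment.

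Trh, Ghrh, Gnrh1 and Sst were not called in any comparison of diets. Summed Trh ranged from 5.75 to 14.2 CPM in chow and from 3.45 to 18.6 CPM in fasted mice at 16 h, and from 0.789 to 20.2 CPM in chow and from 2.31 to 25.5 CPM in fasted mice at 24 h. Its fold of fasted against chow was 1.04 at 16 h (0.487 to 2.22) and 1.35 at 24 h (0.641 to 2.85, edgeR adjusted p = 0.677).

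Ghrh was near the limit of detection, with 3 to 165 counts per mouse in the sums. It ranged from 0.387 to 1.03 CPM in chow and from 0.227 to 0.902 CPM in fasted mice at 16 h, and its fold of fasted against chow was 0.851 (0.481 to 1.51). After 24 h it ranged from 0.0401 to 1.38 CPM in chow and from 0.155 to 1.29 CPM in fasted mice, with a fold of 0.942 (0.508 to 1.75). In the highest column of mice with no failed hypothalamus library, it averaged 3.49 ± 0.88 CPM in chow (n = 6) and 2.57 ± 0.16 CPM in fasted mice (n = 7) at 24 h (limma log2 -0.35, adjusted p = 0.123). Gnrh1, with 19 to 151 counts per mouse, had a fold of 0.977 (0.817 to 1.17) at 16 h and 0.960 (0.723 to 1.27) at 24 h.

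Sst was the gene most evenly spread over the columns of a mouse. Its sums ranged from 46.1 to 55.7 CPM in chow, from 49.1 to 67.6 CPM in HFD and from 36.1 to 52.6 CPM in fasted mice at 16 h, and the groups overlapped. The fold of fasted against HFD was 0.884 (95% interval 0.771 to 1.01, edgeR adjusted p = 0.497). At 24 h the fold of fasted against chow was 1.05 (0.837 to 1.33). Because interneurons of the cortex and hippocampus also make Sst, its sum is not a measure of the hypothalamic hormone alone.

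**Figure D5:**
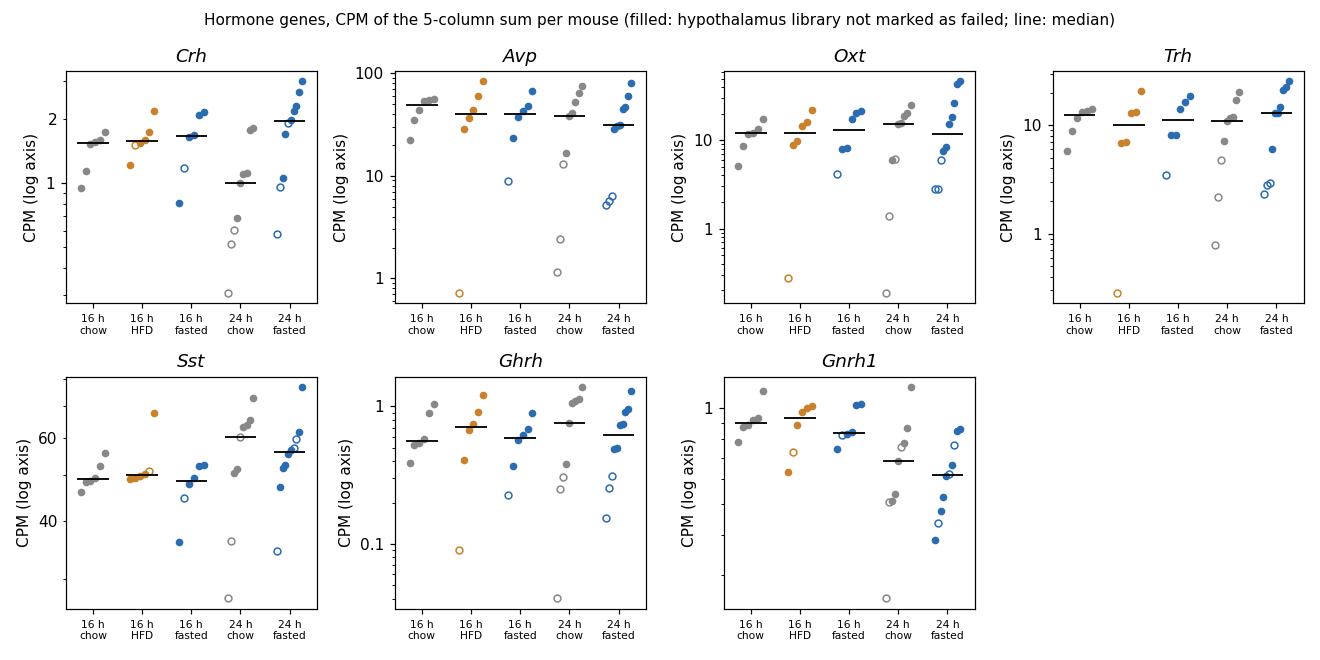
CPM of the 5-column sum per mouse for the 7 genes, on a log axis, by study and diet; each point is 1 mouse, open points are mice whose hypothalamus library is marked as failed, and the line is the median. Sst lies within 27.3 to 77.0 CPM in all 37 mice, while Avp runs from 0.727 to 83.1 CPM with open points lowest.

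The receptors, processing enzymes and partners of these hormones were compared by the same fits on the sums. At 16 h, none of the genes on these lists passed the threshold in any comparison, among 14 receptors, 8 processing enzymes, 6 binding and degrading proteins, 6 related peptides and partners, and 8 neuroendocrine transcription factors tested. At 24 h, 1 of 8 processing enzymes was higher in fasted mice: Furin, a protease that cuts prohormones and other precursors at basic residues (log2 0.19, SE 0.058, edgeR adjusted p = 0.0322). Over all genes, 5.78% were called as higher by this test. Furin was not called in the highest column (log2 0.16, limma adjusted p = 0.387). The other 7 enzymes were not called, and the median log2 fold change of the 8 was 0.099 against -0.0044 over all genes tested. None of the 14 receptors, 6 binding and degrading proteins, 6 related peptides and 8 transcription factors was called at 24 h, with lowest adjusted p-values of 0.0625, 0.523, 0.177 and 0.591. In the highest column at 24 h, 1 of 12 receptors was lower in fasted mice: Sstr1, a receptor of Sst (log2 -0.40, SE 0.089, limma adjusted p = 0.00958), named after its value was seen. Over all genes, 3.05% were called as lower by this measure.

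Markers of other tissue differed widely between mice. Summed pituitary markers reached at most 10.4 CPM at 16 h, where up to 4 of the 7 were at 0 in a mouse, and reached 1137 CPM in 24 h chow and 271 CPM in 24 h fasted mice. Choroid plexus markers reached 4066 CPM in 24 h fasted and 1754 CPM in 24 h chow mice, and forebrain interneuron markers lay between 82.7 and 157 CPM in all mice. None of these lists held a called gene between diets at 24 h on the sums, their ranges overlapped, and their part in the Crh difference was not tested. The 7 hypothalamus markers had a median log2 fold change between fasted and chow at 24 h of 0.017 in the sums and of 0.50 in the highest column, where they lay between 0.29 and 0.90 and none was called (limma lowest adjusted p = 0.480). In the highest column, the summed markers reached 11.7 CPM in chow mouse 1441 and 14.5 CPM in chow mouse 1451. In 24 h mice with no failed hypothalamus library, they lay between 163 and 194 CPM (chow) and 141 and 187 CPM (fasted). The part of the markers in the highest-column difference of Crh was not tested. The fit given above with their level as a covariate was on the sums, so it cannot decide this for the highest column.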

How the data were processed

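The authors extracted RNA with the RNeasy Micro Kit, made rRNA-depleted NEBNext directional libraries, demultiplexed with bcl2fastq 2.20.0 and aligned paired reads to GRCm39 with STAR 2.7.3a, whose gene counts they deposited as raw counts without normalization. Which annotation and which strand STAR counted is not given in the sources used here. The matrix has 185 columns under 37 headings, 5 for each mouse. A heading names the mouse and not the region, so columns were assigned to mice only. All columns were summed per mouse, and the highest column was taken per gene among the 177 columns with at least 1000000 counts.

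Sums were tested with edgeR's quasi-likelihood test (TMM, filterByExpr) and highest columns with limma-trend on log2(CPM + 0.5), for genes with at least 1 CPM in at least 6 mice. The 3 diets at 16 h shared 1 fit and the 24 h study had its own. SEs of edgeR fold changes were derived from the F statistic. Versions were R 4.3.3, edgeR 4.0.16, limma 3.58.1, DESeq2 1.42.0 and scipy 1.17.1. The main tests took mice as units and judged differences against the spread between mice. Mice of the 16 h study shared cages, 2 of the same diet in each, which the main fits did not model. The tests were checked on simulated counts and values with 200 changed genes: of 100 genes changed 2-fold at 24 h, edgeR recovered 94% on sums (28736 genes) and limma 86% on highest columns (21440 genes). The changed genes were drawn at random from genes above a minimum mean level, each with its own spread. These shares are therefore not the power for the hormone genes, whose SEs at 24 h reached 0.63 in the sums (Oxt). Alternatives were DESeq2, other size factors, filters and pseudocounts, leaving out columns or mice, covariates, and leaving out each mouse in turn.

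The 7 hormone genes were always named, as were up to 3 called genes of each further list per comparison of sums and the 3 genes with the highest correlation with each hormone gene. Those lists were receptors, processing enzymes, binding and degrading proteins, related peptides and partners, transcription factors, and markers of hypothalamus, pituitary, choroid plexus and forebrain interneurons. The members and lists were chosen with earlier results of these data known. Sequences came from GENCODE vM39 transcripts. The deposited table of libraries was not used for values.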

Additional observations from a re-analysis of the deposited data

Results flagged for a closer look

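In each of 70 groups of mice (7 genes, 5 groups and 2 measures) the highest and the lowest mouse were checked against the rest, and 8 stood apart by the gap to the nearest mouse divided by the range. Chance flags about 1 in 20 groups. In the 16 h study, fasted mouse 9 was low in the highest column of Crh (1.95 CPM, nearest mouse 3.03), chow mouse 1 was high in Oxt (86.8 CPM, nearest 47.8), and HFD mouse 18 was high in Sst, both in the sum (67.6 CPM, nearest 51.0) and in the highest column (107 CPM, nearest 83.0). In the 24 h study, fasted mouse 1454, whose superior colliculus tube the labels record as exchanged with that of chow mouse 1423 (corrected by the authors in their sample records), was high in the highest column of Sst (206 CPM, nearest 118). Fasted mouse 1445 was low in Ghrh (0.714 CPM, nearest 2.19). Chow mouse 1422 (3.92 CPM, nearest 1.91) and fasted mouse 1455 (3.33 CPM, nearest 1.90) were high in Gnrh1, and the hypothalamus libraries of mice 1445, 1422 and 1455 are marked as failed. No hormone gene had a fasting effect that differed between the studies at an adjusted p of 0.05.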

How the results depend on the processing

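The number of hormone genes called was 0 in every comparison and setting except for fasting at 24 h, where it became 1 (Crh) for the sums with DESeq2, with only columns past both depth limits, and with hypothalamus markers as a covariate, and for the highest column when mice with a failed hypothalamus library were left out. Leaving out 1 mouse at a time gave between 0 and 1 called genes by both measures at 24 h. Crh then had a log2 fold change between 0.84 and 1.12 in the sums (edgeR adjusted p between 0.0219 and 0.104), and was called without chow mouse 1432 (0.0269) or 1443 (0.0395), or without fasted mouse 1453 (0.0410), 1435 (0.0457) or 1455 (0.0219). In the highest column it lay between 0.74 and 1.00 (limma adjusted p between 0.0147 and 0.132), and was called without fasted mouse 1435 (0.0415) or 1455 (0.0147). The cause of these shifts was not tested. Crh was higher in fasted mice at 24 h in every one of these settings. Of 454 other comparisons of single genes with an alternative, 407 kept direction and side of the threshold, and of 1022 with 1 mouse left out, 926 did.

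All other changes of sign were between values that both missed the threshold. The following are log2 fold changes that took the opposite sign. Leaving out mice with a failed hypothalamus library gave, in the sums, 0.023 for Crh and 0.024 for Avp (fasted against HFD), -0.055 for Sst (24 h) and -0.13 for Ghrh (24 h effect less 16 h effect). In the highest column it gave 0.15 for Trh (fasted against chow, 16 h) and -0.23 for Avp, -0.0092 for Sst and -0.35 for Ghrh at 24 h. With hypothalamus markers as a covariate, the sums gave 0.14 for Avp and 0.067 for Ghrh (fasted against chow, 16 h), 0.23 for Avp and 0.18 for Trh (HFD against chow), -0.0063 for Gnrh1 (fasted against HFD) and -0.18 for Avp at 24 h. Leaving out mice marked as failed in any way, an alternative added after seeing the data, gave in the sums 0.21 for Avp, 0.16 for Trh and 0.0016 for Gnrh1 (HFD against chow), and 0.0096 for Crh and -0.025 for Gnrh1 (fasted against HFD). It gave in the highest column 0.15 for Trh (fasted against chow), 0.41 for Avp, 0.61 for Oxt, 0.28 for Trh and 0.31 for Ghrh (HFD against chow), and -0.46 for Avp, -0.26 for Oxt and -0.12 for Trh (fasted against HFD). A pseudocount of 2 for the highest column gave Ghrh 0.0077 (HFD against chow) and -0.034 (24 h). Using columns of any depth for the same measure gave Crh 0.36 (fasted against chow, 16 h) and 0.35 (fasted against HFD), Sst -0.27 (HFD against chow), and Sst -0.041 and Ghrh -0.29 at 24 h. Only columns past both depth limits gave, at 24 h, Avp -0.0012 and Sst -0.016 in the sums and Avp -0.14, Sst -0.21, Ghrh -0.36 and Gnrh1 -0.21 in the highest column. Leaving out mice 1423 and 1454 gave Avp -0.0017 in the sums and Sst -0.17 in the highest column at 24 h, and Gnrh1 0.0084 for the difference between studies.

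With 1 mouse left out at a time, these signs also changed. In the sums for fasted against chow at 16 h, Trh ranged from -0.13 to 0.24, Sst from -0.10 to 0.0058 and Gnrh1 from -0.087 to 0.027. For HFD against chow, Avp ranged from -0.36 to 0.21, Oxt from -0.18 to 0.34, Trh from -0.43 to 0.16, Ghrh from -0.20 to 0.27 and Gnrh1 from -0.093 to 0.032. For fasted against HFD, Crh ranged from -0.16 to 0.10, Avp from -0.43 to 0.14, Oxt from -0.11 to 0.41, Trh from -0.10 to 0.48 and Gnrh1 from -0.065 to 0.060. At 24 h, Avp ranged from -0.18 to 0.29, Sst from -0.0028 to 0.15, Ghrh from -0.27 to 0.073 and Gnrh1 from -0.15 to 0.060. In the highest column for fasted against chow at 16 h, Crh ranged from -0.13 to 0.10 and Trh from -0.21 to 0.15. For HFD against chow, Crh ranged from -0.11 to 0.083, Avp from -0.87 to 0.41, Oxt from -0.59 to 0.61, Trh from -0.92 to 0.28 and Ghrh from -0.28 to 0.31. For fasted against HFD, Crh ranged from -0.092 to 0.088, Avp from -0.74 to 0.56, Oxt from -0.46 to 0.74, Trh from -0.37 to 0.83 and Gnrh1 from -0.074 to 0.044. At 24 h, Trh ranged from -0.018 to 0.65, Sst from -0.11 to 0.071, Ghrh from -0.20 to 0.22 and Gnrh1 from -0.079 to 0.22.

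The ratio of Oxt to Avp kept its direction without mice marked as failed. Animal numbers are not shared between groups. No paired analysis was possible because the groups compared share no animal number. Depth limits Ghrh and Gnrh1 most, with medians of 63 and 75 counts per mouse in the sums.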
